A study of Homo sapiens with 8 samples.

Results

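After 12 h of hypoxia, set at 1% O2, the colon cancer line DKS-5 was compared with the colon cancer line DKO-3 across 12735 genes. By their labels, DKS-5 is the K-ras mutant line and the K-ras of DKO-3 is wild-type. The comparison rests on 2 arrays of each line, 4 of the 8 arrays in the series, which were taken by their labels alone. The other 4 arrays, 2 per line, came from the same lines kept at 21% O2 (normoxia) and are used here to set the line difference at each oxygen level side by side. Both lines are derivative clones of the human colon cancer line DLD-1, and each genotype is represented by 1 clone, so differences that follow the genotype and differences that follow the clone cannot be told apart. K-ras expression is not analysed here and could not serve as a check of the genotypes. The labels do not tie the 2 arrays of a group to separate cultures, so p-values measure only how far these arrays spread, which may be technical. An exact permutation test of 2 arrays against 2 cannot give a two-sided p below 0.333, and the tests below therefore borrow the spread from all genes and all 8 arrays.

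K-ras is a small GTPase that passes signals from growth factor receptors to the RAF, MEK and ERK kinases, and mutant forms stay in the active state. ERK induces early transcription factors and a set of feedback inhibitors, among them the DUSP phosphatases. At low oxygen the hydroxylases that mark the HIF subunits for destruction lose activity, and HIF then raises genes of glycolysis, of vessel growth and of its own feedback loop. Vascular endothelial growth factor, encoded by VEGFA, is known to respond to both routes.

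Of 16 listed epithelial genes, 12 were tested, and CDX1, GPA33, LGALS4 and HNF4A were not among the genes tested. The summed signal of the 12, to which general epithelial genes contributed most, was 27104 and 26214 on the DKS-5 hypoxia arrays and 24800 and 26682 on the DKO-3 hypoxia arrays. EPCAM, an adhesion protein of epithelial cells, had signals of 7752 and 6704 in DKS-5 and 5316 and 5737 in DKO-3. Of the genes particular to gut epithelium, which are singled out after their values were seen, the cadherin gene CDH17 had 1777 and 2783 against 2063 and 2344, and the homeobox gene CDX2 70.3 and 147 against 220 and 108, both with overlapping arrays. KRT20 was dim in DKS-5 and VIL1 in DKO-3, with values given further on. Of 20 listed markers of immune, endothelial, fibroblast, muscle and red blood cells, only 4 exceeded the brightness needed for a test (COL1A1, HBB, DES and ACTA2), with summed signals of 186 and 186 against 163 and 113. In bulk RNA such as this, fewer cells of a kind and less RNA per cell cannot be told apart. The hypoxia arrays of the lines also differed in an indicator of RNA quality. The ratio of 3' to 5' signal of the ACTB control was 54.8 and 25.6 on the DKS-5 arrays and 11.47 and 11.02 on the DKO-3 arrays, and that of GAPDH was 3.76 and 2.36 against 1.53 and 1.61, without overlap. In normoxia the ranges of the lines overlapped, with ACTB ratios of 55.1 and 34.3 in DKS-5 and 49.0 and 14.9 in DKO-3. Across genes, DKS-5 hypoxia replicate 1 was more alike to the DKS-5 normoxia arrays (Pearson's r of 0.986) than to its own replicate (0.976).

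In hypoxia, 557 of the 12735 genes tested (4.37%) differed between the lines at an adjusted p under 0.05 (limma with Benjamini-Hochberg adjustment). Of these, 177 genes (1.39%) were higher in DKS-5 and 380 genes (2.98%) were lower. At an unadjusted limma p under 0.05, 942 of the 12735 genes were higher and 1404 lower. All these counts and shares are the base for the counts of gene lists further on. The largest differences in favour of DKS-5 were HHIP, C6orf141 and NIBAN1, and those in favour of DKO-3 were SH3BGRL, KRT20 and PSMB9. At least 2-fold differences were seen in 95 of the higher and 309 of the lower genes, and at least 8-fold differences in 2 and 6. The median size of the log2 difference was 1.04 among the higher and 1.19 among the lower genes, and the smallest that passed was 0.45. In all 557 genes the DKS-5 arrays lay entirely to 1 side of the DKO-3 arrays, which was the case for 44.9% of all genes tested. Just inside the threshold lay TRIP4 (-0.84, adjusted p = 0.0499) and FKBP5 (0.87, adjusted p = 0.050), and just outside it GAR1 (0.68, adjusted p = 0.0501) and DNAJC15 (0.61, adjusted p = 0.0505), all by limma.

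**Figure D1:**
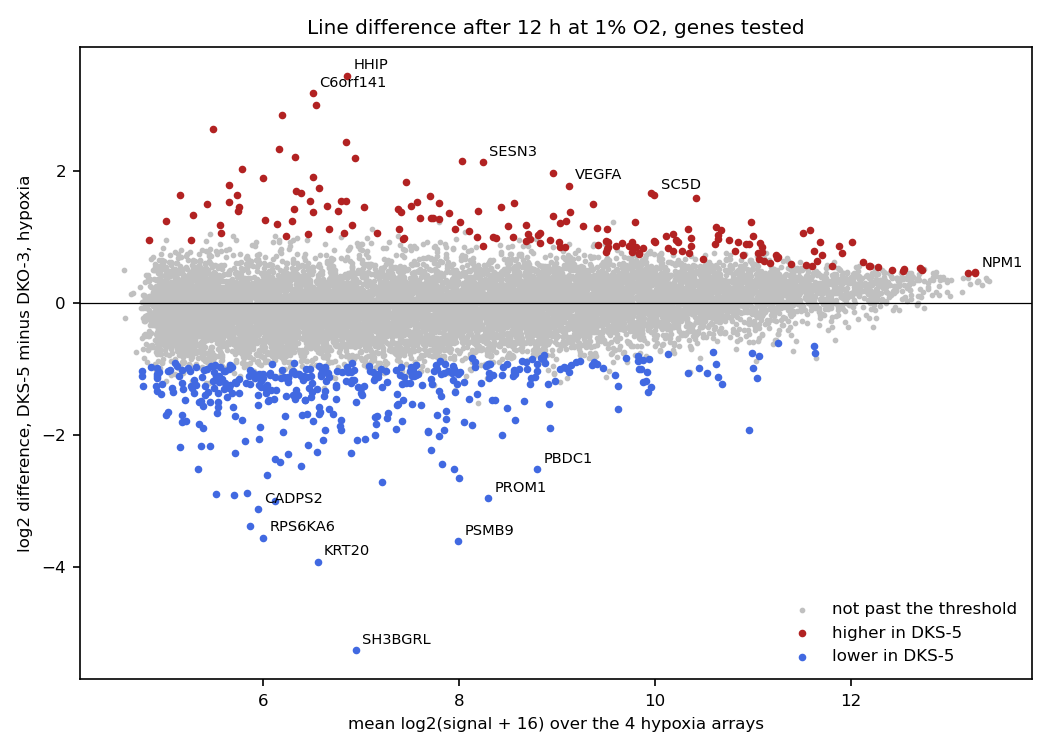
Each point is 1 of 12735 genes. The horizontal axis is the mean log2(signal + 16) over the 4 hypoxia arrays and the vertical axis the log2 difference, DKS-5 minus DKO-3. Red points are the 177 genes higher and blue points the 380 genes lower in DKS-5 by limma. The lower genes reach -5.27 (SH3BGRL), the higher ones 3.45 (HHIP), and bright genes such as NPM1 passed with smaller differences.

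The count depended on the arrays and on whether the RNA quality measure entered the fit. It was 135 without DKO-3 hypoxia replicate 1 and 258 without DKO-3 hypoxia replicate 2, against 761 and 481 without DKS-5 hypoxia replicates 1 and 2. Without DKS-5 hypoxia replicate 1, 302 of the calls were higher in DKS-5 in place of 177. With the log2 ACTB ratio as a covariate 128 genes passed, 32 higher and 96 lower, and 113 of them were among the 557. The median size of the 557 differences was 1.17 with this covariate and 1.14 without it. In hypoxia the ratio did not overlap between the lines, so covariate and line are partly confounded there. A call lost with the ACTB ratio is thus not shown to follow RNA quality. Of 93 genes past the threshold that are named by rule, 34 passed under all 19 alternatives in which they were tested, while 50 missed the threshold with the ACTB covariate, 41 without DKO-3 hypoxia replicate 1 and 28 without DKO-3 hypoxia replicate 2. With the deposited signals left unscaled, the median difference of all genes moved from -0.03 to -0.42 and 2383 genes passed, 63 higher and 2320 lower.

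Both DKO-3 hypoxia arrays were under 13.8, the signal a gene needed to be tested, in 3 of the 20 largest rises, and both DKS-5 hypoxia arrays were under it in 9 of the 20 largest falls. Promoter sequences of the 3 genes at the top of each direction are shown because these genes had the largest differences between the lines. Each is the 250 bases before the start site in RefSeq (GRCh38.p14), written 5' to 3' on the strand of the gene, with every CG dinucleotide in capitals. No measurement at these promoters is analysed here.

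HHIP (chr4:144645906-144646155, plus strand): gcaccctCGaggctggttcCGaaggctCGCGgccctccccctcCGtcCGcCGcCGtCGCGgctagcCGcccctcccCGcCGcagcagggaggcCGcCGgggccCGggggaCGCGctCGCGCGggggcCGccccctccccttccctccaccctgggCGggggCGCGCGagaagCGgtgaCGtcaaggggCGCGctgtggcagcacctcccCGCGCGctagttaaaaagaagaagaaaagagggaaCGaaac
C6orf141 (chr6:49550418-49550667, plus strand): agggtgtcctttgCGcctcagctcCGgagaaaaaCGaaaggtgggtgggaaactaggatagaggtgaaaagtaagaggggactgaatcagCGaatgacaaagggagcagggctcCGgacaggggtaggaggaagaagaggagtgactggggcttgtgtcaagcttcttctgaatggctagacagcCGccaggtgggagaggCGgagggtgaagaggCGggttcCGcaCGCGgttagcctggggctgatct
NIBAN1 (chr1:184974509-184974758, minus strand): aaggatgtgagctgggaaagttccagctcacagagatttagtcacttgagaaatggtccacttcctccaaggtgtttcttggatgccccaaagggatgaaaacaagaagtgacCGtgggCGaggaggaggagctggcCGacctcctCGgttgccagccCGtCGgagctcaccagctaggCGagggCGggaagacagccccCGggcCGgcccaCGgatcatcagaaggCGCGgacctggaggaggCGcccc
SH3BGRL (chrX:81201852-81202101, plus strand): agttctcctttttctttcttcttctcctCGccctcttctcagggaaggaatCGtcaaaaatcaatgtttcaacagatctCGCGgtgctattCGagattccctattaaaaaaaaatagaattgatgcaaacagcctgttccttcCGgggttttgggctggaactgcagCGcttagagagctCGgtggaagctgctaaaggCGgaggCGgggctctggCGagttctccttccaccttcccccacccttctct
KRT20 (chr17:40885243-40885492, minus strand): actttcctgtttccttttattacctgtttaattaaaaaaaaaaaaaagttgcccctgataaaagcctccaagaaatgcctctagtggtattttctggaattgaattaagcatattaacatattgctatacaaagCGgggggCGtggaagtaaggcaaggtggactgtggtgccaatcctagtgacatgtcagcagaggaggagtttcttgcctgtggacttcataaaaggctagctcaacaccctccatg
PSMB9 (chr6:32853942-32854191, plus strand): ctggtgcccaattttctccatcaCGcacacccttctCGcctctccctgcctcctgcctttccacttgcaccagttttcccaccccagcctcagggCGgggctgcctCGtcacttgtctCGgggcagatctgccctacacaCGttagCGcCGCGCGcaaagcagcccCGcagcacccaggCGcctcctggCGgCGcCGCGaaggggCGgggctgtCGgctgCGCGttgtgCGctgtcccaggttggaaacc

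The promoters differed in CG content. HHIP held 34 CG dinucleotides, a number that 6.61% of the 27305 promoters used reach (1 of full length per gene, out of 35116 in the table), while KRT20 held 2 (84.6%). PSMB9 held 21 (29.8%), NIBAN1 14 (44.7%), and C6orf141 and SH3BGRL 11 each (50%). The median was 11 CG over all 27305 promoters and 21 over the 10345 tested genes with a promoter in the table. It was 21 over 147 genes higher in DKS-5, and 17 over 296 genes lower in DKS-5. On both strands, the AP-1 letters TGANTCA occurred at 1 place in C6orf141 and in none of the other 5, against 6.60% of all promoters. The ETS letters CCGGAAG occurred once, in SH3BGRL (8.82% of all promoters). Of the cores of the hypoxia response element, ACGTG occurred once, in PSMB9 (18.7% of all promoters), and GCGTG once each in C6orf141, KRT20 and PSMB9 (31.9%). These are matches of letters in this window and not mapped sites.

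HHIP encodes a membrane protein that binds and sequesters hedgehog ligands. Its signal was 468 and 288 on the DKS-5 hypoxia arrays and 24.9 and 14.2 on the DKO-3 arrays, a 10.9-fold difference (log2 3.45 ± 0.29, SE; limma adjusted p = 5.02e-06). The uncharacterised gene C6orf141 stood at 273 and 245 against 15.4 and 13.0 (3.18 ± 0.25, limma adjusted p = 3.64e-06). NIBAN1, a stress-responsive regulator of translation, stood at 258 and 238 against 16.9 and 17.0 (3.0 ± 0.25, limma adjusted p = 5.02e-06). The DKO-3 signals of these genes lay between 13.0 and 24.9, near the 13.8 that separates tested from untested genes. The other genes among the 20 largest rises held several regulators. NPTX2, a neuronal pentraxin, was higher by 2.85, the repressor gene BCL11A by 2.44, the endoderm factor FOXA2 by 2.34 and the ETS factor ETV1 by 2.04. FOXA2 had signals of 159 and 132 in DKS-5 and 17.7 and 13.9 in DKO-3. GRB10, an adaptor that restrains insulin and IGF receptors, was higher by 2.15, SESN3, a sestrin that holds back mTORC1, by 2.13, and the cell cycle kinase gene CDK6 by 1.84. TNFRSF19, a receptor of the TNF family and known Wnt target, had 1010 and 935 in DKS-5 and 204 and 274 in DKO-3 (1.97). TDO2, which opens the tryptophan ring, was higher by 1.91, the muscarinic receptor gene CHRM3 by 1.75, and ZNF182, BAHCC1, SESTD1 and DYNC1I1 by 2.65, 2.22, 2.21 and 1.79. ZNF182, ETV1 and DYNC1I1 were below 13.8 on both DKO-3 hypoxia arrays, so their fitted values depend on the added 16. Set against a signal of 13.8 for DKO-3, DKS-5 was at least 3.76-fold, 3.74-fold and 3.14-fold higher on the log2(signal + 16) scale. ZNF182 missed the threshold with a pseudocount (the amount added to the signal) of 1. The calls of BAHCC1, CDK6, CHRM3, DYNC1I1, SESTD1, TDO2 and TNFRSF19 did not pass with the ACTB ratio as a covariate. CDK6, BAHCC1, CHRM3 and ETV1 also missed the threshold when all probe sets of a gene were averaged.

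The largest fitted difference of the comparison was that of SH3BGRL, a small adaptor of the thioredoxin fold. Its signal was 1.44 and 6.72 in DKS-5 and 886 and 635 in DKO-3, a fitted log2 difference of -5.27 ± 0.26 (limma adjusted p = 2.28e-08). Set against a signal of 13.8 for the dim line, DKO-3 was at least 25.7-fold higher on the log2(signal + 16) scale. KRT20, the keratin of mature colon enterocytes, stood at 10.3 and 6.20 against 407 and 301 (-3.92 ± 0.26, limma adjusted p = 9.53e-07). PSMB9, a catalytic subunit of the immunoproteasome, stood at 58.7 and 55.1 against 793 and 959 (-3.61 ± 0.26, limma adjusted p = 1.47e-06). SH3BGRL and KRT20 were below 13.8 on both DKS-5 arrays, so that their fitted values depend on the added 16 and the bound for KRT20 is at least 12.3-fold, whereas PSMB9 lay above 13.8 on both. RPS6KA6, KLHL13, CADPS2, HMGN5, CALCA, APOL3 and HOPX were also below 13.8 on both DKS-5 arrays, with bounds from at least 3.24-fold (HOPX) to at least 7.37-fold (RPS6KA6). RPS6KA6, an RSK family kinase gene, was at -3.56, with signals of 3.62 and 1.74 in DKS-5 and 227 and 182 in DKO-3. CADPS2, which primes dense-core vesicles for release, was at -3.12, the RNA-binding protein gene CELF2 at -3.00, and the ubiquitin ligase adaptor gene KLHL13 at -3.38. PROM1, which encodes CD133, was at -2.96, with 114 and 81.7 against 804 and 919. CALCA, the calcitonin gene, was at -2.90, the nucleosome-binding protein gene HMGN5 at -2.92, and APOL3, a member of the apolipoprotein L family, at -2.87. COXFA4L3, PLBD1, LINC01133, HOPX, PBDC1, CST7 and LMO2 lay between -2.71 and -2.41. HEPH, a ferroxidase of iron export from enterocytes, was at -2.46, and TSC22D3, a glucocorticoid-induced leucine zipper gene, at -2.44. Of these 20 falls, 19 passed under every alternative in which they were tested, the exception being CALCA with a pseudocount of 1 (-0.58). The brightest probe set of each gene is chosen anew under that setting, and for CALCA it was another one. Detection calls were not used here, and among these 20 falls no order is read from signals under 13.8.

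**Figure D2:**
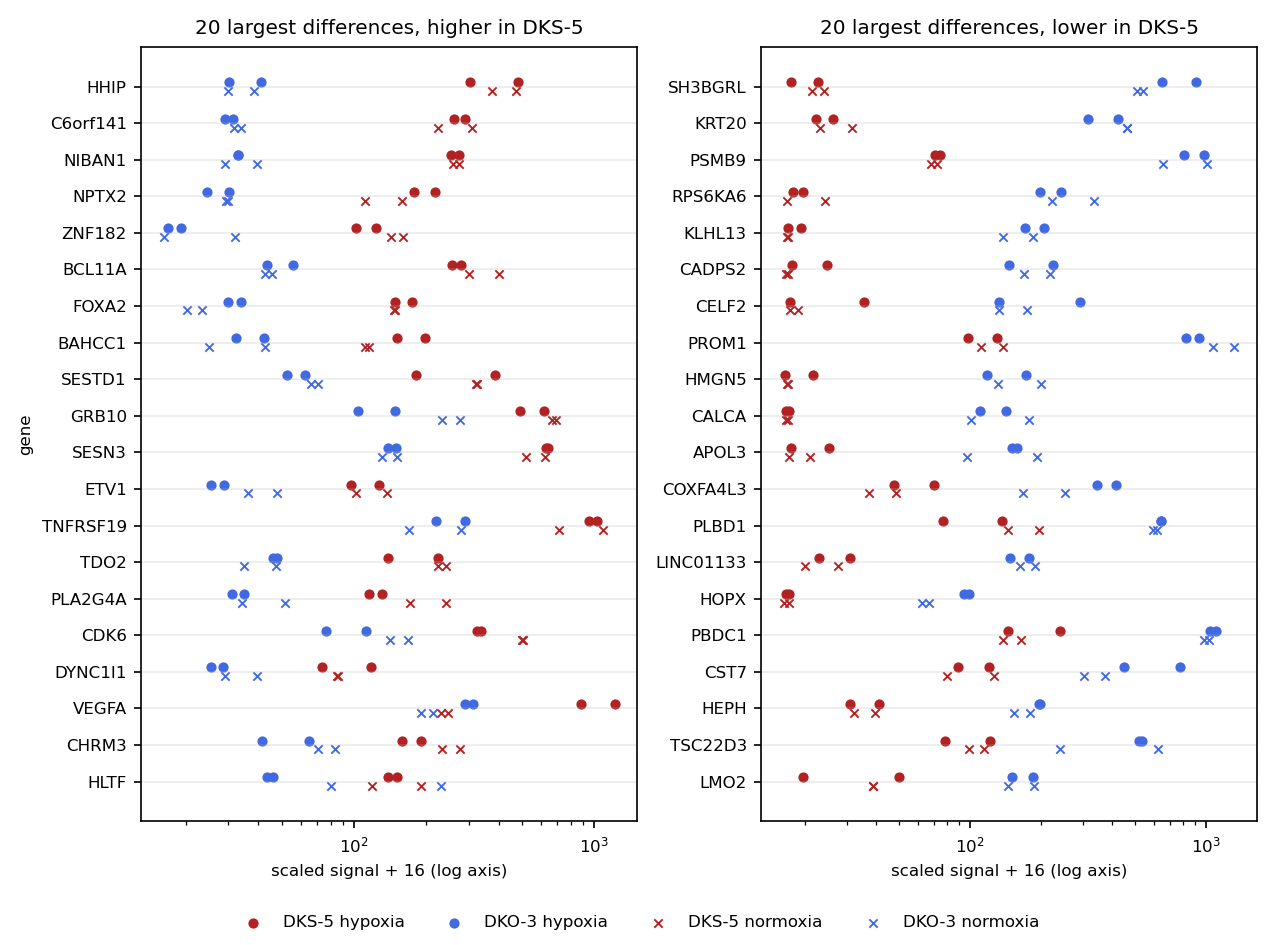
Scaled signal + 16 on a log axis for the 20 genes with the largest differences in each direction, 1 point per array. Filled circles are hypoxia arrays, crosses normoxia arrays, red DKS-5 and blue DKO-3. In every gene shown the 2 red circles lie apart from the 2 blue circles. VEGFA and HLTF are the genes of the left panel whose crosses lie close together or overlap between the lines.

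In 52 of the 380 lower genes both DKS-5 hypoxia arrays were under 13.8, and 33 of these genes were under it on all 4 DKS-5 arrays. In the other direction 8 of the 177 higher genes were under it on both DKO-3 hypoxia arrays, and 2 on all 4 DKO-3 arrays. The promoters of the lower genes that were dim in DKS-5 had a median of 14.5 CG over 36 genes. This lies between the 11 of all 27305 promoters and the 21 of the tested genes. The set was picked for its dimness, and its CG number was not tested. Other probe sets of the same genes mostly had the same sign. Of 558 other probe sets above 13.8, in 294 of the genes that passed, 490 (87.8%) had the sign of the probe set used, 150 with at least a 2-fold difference, and 0 were at least 2-fold the opposite way. Over all genes tested, 59.6% of the other probe sets shared the sign.

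The genotype labels raise the question of K-ras and ERK output. Of 24 ERK feedback and early target genes, 2 were higher, 1 was lower (together 12.5%, against 4.37% of all genes tested) and 21 did not pass. At an unadjusted p under 0.05, 6 were higher and 1 was lower, beside 942 higher and 1404 lower of all 12735 genes. The median log2 difference was 0.14 (-0.03 over all genes tested). ETV1 was higher, with signals of 111 and 81.5 in DKS-5 and 12.8 and 9.48 in DKO-3. IER3, an early response gene, stood at 5470 and 5941 against 3229 and 2768 (0.93 ± 0.16, limma adjusted p = 0.00299). EPHA4, an ephrin receptor, stood at 36.8 and 48.8 against 193 and 135 (-1.60, limma adjusted p = 0.00265). The feedback phosphatase gene DUSP6 had 1299 and 1626 in DKS-5 and 1213 and 1443 in DKO-3, with overlapping arrays and a difference of 0.13 ± 0.21 (limma adjusted p = 0.791) that turned negative without scaling and with the ACTB ratio. EGR1, an immediate early transcription factor, was at 0.52 (limma adjusted p = 0.0847). Of 15 members of the RAS and MAPK pathway, limma passed 0 (1 at an unadjusted p under 0.05). HRAS, a close relative of K-ras, had 311 and 431 against 323 and 478 (-0.10 ± 0.30), and its sign turned without DKS-5 hypoxia replicate 1 or DKO-3 hypoxia replicate 2. Of 8 genes of the EGF receptor family and its ligands, the ligand gene BTC passed (12.5%, against 4.37% of all genes tested). It had 49.5 and 51.1 against 124 and 124 (-1.08 ± 0.25, limma adjusted p = 0.0235). Its call was lost without DKS-5 hypoxia replicate 2 and without either DKO-3 hypoxia array, that of EPHA4 without DKO-3 hypoxia replicate 1, and those of IER3, EPHA4 and BTC with the ACTB ratio as a covariate.

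Of 10 angiogenic and vasoactive factors, 4 were higher (40%, against 1.39% of all genes tested), 0 were lower and 6 did not pass. The median log2 difference was 0.63 (0.12 in normoxia). The median of the list for hypoxia minus normoxia within a line was 0.03 in DKS-5 and 0.12 in DKO-3. VEGFA had signals of 1200 and 865 on the DKS-5 hypoxia arrays and 296 and 275 on the DKO-3 hypoxia arrays, a 3.44-fold difference (1.78 ± 0.24, limma adjusted p = 0.000401). In normoxia its signals were 231 and 214 in DKS-5 and 198 and 173 in DKO-3 (0.24, limma adjusted p = 0.839). Both DKS-5 hypoxia arrays thus stood far above all other arrays, and the difference of the line differences was 1.54 ± 0.33 (limma adjusted p = 0.9995). The other 3 VEGFA probe sets gave smaller line differences in hypoxia, of 0.79, 0.28 and 0.06, and the call of VEGFA did not pass with their mean or with the ACTB ratio as a covariate. STC1, a secreted stanniocalcin, had 51.0 and 103 against 20.4 and 13.0 (1.46, limma adjusted p = 0.00917). FGF2, a fibroblast growth factor, had 45.9 and 60.7 against 10.5 and 24.8 (1.07, limma adjusted p = 0.0455). It was higher in DKS-5 in normoxia too, with 101 and 83.8 against 36.2 and 20.5 (1.31, limma adjusted p = 0.0202), and hypoxia minus normoxia was -0.65 in DKS-5 and -0.41 in DKO-3, neither past the threshold. ANGPTL4, an angiopoietin-like lipase inhibitor, had 81.6 and 101 against 40.7 and 33.6 (1.01, limma adjusted p = 0.0322). Only 1 of the 4 passed without DKS-5 hypoxia replicate 2 and without either DKO-3 hypoxia array, and 0 passed with the ACTB ratio as a covariate.

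Of 21 genes of glycolysis and glucose uptake, 1 was higher (4.76%, near the 4.37% of all genes tested) and 20 did not pass. At an unadjusted p under 0.05, 9 were higher and 0 lower, beside 942 higher and 1404 lower of all 12735 genes. The aldolase gene ALDOC had 108 and 113 in DKS-5 and 40.8 and 49.5 in DKO-3 (1.05 ± 0.25, limma adjusted p = 0.0274), a call that was lost without either DKO-3 hypoxia array, without DKS-5 hypoxia replicate 2 and with the ACTB ratio. PDK1, a kinase that closes entry to the citric acid cycle, was at 0.74 (limma adjusted p = 0.0810). The oxygen sensing and HIF feedback list had 13 tested genes, of which limma passed 0, while unadjusted p-values under 0.05 went to 2 higher genes and 1 lower gene. HIF1A, the oxygen-regulated HIF subunit gene, had 1978 and 1599 against 1277 and 1583 (0.32 ± 0.22, limma adjusted p = 0.469), and EPAS1, its HIF-2 counterpart, 157 and 138 against 255 and 161 (-0.43 ± 0.27, limma adjusted p = 0.441). Neither passed, and in both genes the arrays of the lines did not overlap, as in 44.9% of all genes tested. Of 27 other hypoxia-induced genes, 1 was higher and 1 lower (together 7.41%, near the 4.37% of all genes tested). At an unadjusted p under 0.05, 6 of them were higher and 1 was lower. KISS1R, the kisspeptin receptor gene, had 99.4 and 110 against 35.5 and 34.5 (1.24 ± 0.24, limma adjusted p = 0.00843), and its call was lost without either DKO-3 hypoxia array and with the ACTB ratio. PPFIA4, a liprin scaffold gene, had 35.4 and 19.3 against 233 and 152 (-2.26 ± 0.28, limma adjusted p = 0.000271) and passed under every alternative. NDRG1, a classical hypoxia gene, had nearly equal signals of 1996 and 2097 in DKS-5 and 2006 and 1932 in DKO-3 (0.05 ± 0.20, limma adjusted p = 0.923), and the sign of this difference depended on the scaling. In normoxia it had been lower in DKS-5, with 132 and 127 against 413 and 342 (-1.43, limma adjusted p = 0.000892).

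**Figure D3:**
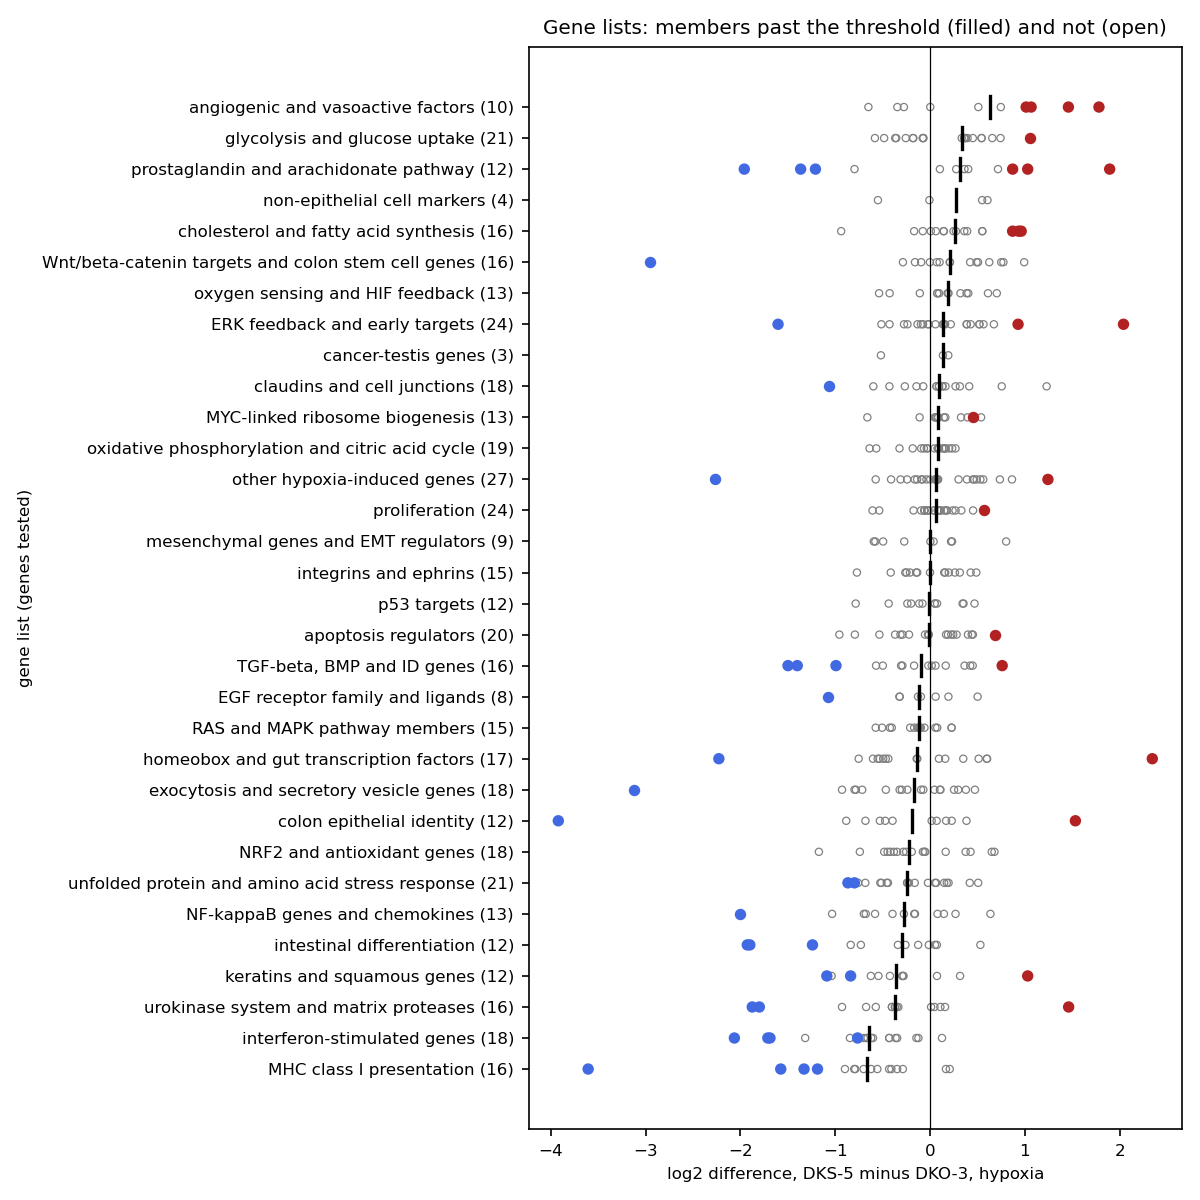
Log2 differences, DKS-5 minus DKO-3 in hypoxia, for the tested members of 32 gene lists, 1 circle per gene and the number tested in brackets. Filled circles passed the threshold (red higher, blue lower), open circles did not, and the black bar is the median of the list. Medians run from -0.66 for MHC class I presentation to 0.63 for angiogenic factors.

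Several genes of antigen presentation and the interferon response were lower in DKS-5. Of 16 genes of MHC class I presentation, 4 were lower (25%, against 2.98% of all genes tested), 0 were higher and 12 did not pass. At an unadjusted p under 0.05, 10 were lower and 0 higher, beside 1404 lower and 942 higher of all 12735 genes. The median of the list was -0.66, and 14 members were negative, beside 6853 of all 12735 genes. Beside PSMB9, the transactivator gene NLRC5 had 5.04 and 18.4 against 58.2 and 70.6 (-1.58, limma adjusted p = 0.00319). The immunoproteasome gene PSMB8 had 120 and 127 against 325 and 345 (-1.33, limma adjusted p = 0.00594), and the class I heavy chain gene HLA-B 616 and 623 against 1472 and 1393 (-1.19, limma adjusted p = 0.0160). HLA-B belongs to a family of near-identical genes whose transcripts the probes may share. Of 18 interferon-stimulated genes, 4 were lower (22.2%, against 2.98% of all genes tested) and 0 were higher. Of the 18 values 17 were negative (median -0.64), and 10 genes were lower and 0 higher by an unadjusted p under 0.05. IFIT3 had 14.9 and 13.8 in DKS-5 and 110 and 112 in DKO-3 (-2.06, limma adjusted p = 0.000157), IFIT1 was at -1.71, IFIT2 at -1.69 and the ligase gene HERC6 at -0.76. In normoxia the medians were -0.69 for MHC class I presentation and -0.28 for the interferon-stimulated genes, with 5 lower and 0 higher genes in each. In hypoxia the median of all genes tested was -0.03. Without DKO-3 hypoxia replicate 1 or 2 the lower genes numbered 2 in each list, without DKS-5 hypoxia replicate 1 they numbered 6 and 3, and with the ACTB ratio as a covariate 1 in each (PSMB9 and IFIT3).

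Genes of differentiated gut epithelium differed in both directions. Of 12 colon epithelial identity genes, KRT20 was lower and VIL1 higher (together 16.7%, against 4.37% of all genes tested). VIL1, the actin bundler of the brush border, had 87.5 and 54.8 in DKS-5 and 12.8 and 14.4 in DKO-3 (1.53 ± 0.25, limma adjusted p = 0.00246). KRT19, a keratin of simple epithelia, had 1388 and 1669 against 2930 and 2722 (-0.88, limma adjusted p = 0.0519). Of 12 intestinal differentiation genes, 3 secretory products were lower (25%, against 2.98% of all genes tested) and 0 were higher. At an unadjusted p under 0.05, 5 were lower and 1 was higher. REG4, a lectin of enteroendocrine and goblet cells, had 30.4 and 53.4 against 150 and 265 (-1.93, limma adjusted p = 0.00267). The trefoil peptide gene TFF2 had 10.5 and 1.52 against 68.6 and 60.6 (-1.90), and the goblet cell gene SPINK4 had 19.9 and 14.1 against 64.9 and 58.4 (-1.24). Without DKO-3 hypoxia replicate 2 only TFF2 passed, and SPINK4 also missed the threshold without DKO-3 hypoxia replicate 1 or DKS-5 hypoxia replicate 2. VIL1, REG4 and SPINK4 did not pass with the ACTB ratio as a covariate. Of 17 homeobox and gut transcription factors, FOXA2 was higher and HOXD10 lower (together 11.8%, against 4.37% of all genes tested). HOXD10 had 108 and 60.1 against 532 and 362 (-2.23, limma adjusted p = 0.000408), and both genes passed under every alternative. Of 16 Wnt targets and colon stem cell genes PROM1 was lower, and the stem cell receptor gene LGR5 was at 0.99 (limma adjusted p = 0.0757). PROM1 was the only member past the threshold (6.25%, near the 4.37% of all genes tested), while 6 members were higher at an unadjusted p under 0.05.

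Among keratins and squamous genes, ANXA1 was higher and S100A2 and S100A14 lower, of 12 tested (together 25%, against 4.37% of all genes tested). ANXA1, an inhibitor of phospholipase A2, had 2369 and 2166 against 959 and 1265 (1.03 ± 0.19, limma adjusted p = 0.00589). The calcium-binding protein gene S100A2 had 512 and 513 against 1200 and 1025 (-1.09 ± 0.20, limma adjusted p = 0.00597). All 3 calls were lost without DKO-3 hypoxia replicate 1 and with the ACTB ratio, and that of S100A14 without any 1 of the other hypoxia arrays. Of 18 claudin and junction genes, CLDN1 alone passed (5.56%, near the 4.37% of all genes tested). It was lower, with 113 and 121 against 297 and 232 (-1.07, limma adjusted p = 0.0194). Its call was also lost without DKO-3 hypoxia replicate 1 and with the ACTB ratio. DSC2, a desmosomal cadherin gene, had the largest positive value of that list at 1.23 and did not pass (limma adjusted p = 0.0585). Of 16 genes of the urokinase system and matrix proteases, the protease inhibitor gene SERPINE2 was higher, with 483 and 642 against 163 and 227 (1.46, limma adjusted p = 0.0149). SERPINA1, the antitrypsin gene, had 18.1 and 15.3 against 104 and 104 (-1.88), and TIMP3, an inhibitor of matrix metalloproteases, 135 and 118 against 635 and 362 (-1.80), and both were lower. With SERPINE2 they made up 18.8% of that list, against 4.37% of all genes tested. The call of SERPINE2 was lost without DKS-5 hypoxia replicate 2 or DKO-3 hypoxia replicate 1, and that of TIMP3 without DKO-3 hypoxia replicate 1. None of 9 mesenchymal genes or 15 integrins and ephrins passed by limma, and an unadjusted p under 0.05 was found in 1 higher and 2 lower genes of the former and in 2 higher and 1 lower of the latter.

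The prostaglandin and arachidonate pathway had the highest share of members past the threshold among the 32 lists, 6 of 12 (50%). The share of all genes tested was 4.37%. Of the 6 members, 3 were higher and 3 lower. The lists were chosen with earlier results of these data known, so nothing is tested by this rank. PLA2G4A, the cytosolic phospholipase that frees arachidonate, had 114 and 99.6 in DKS-5 and 15.2 and 18.97 in DKO-3 (1.89 ± 0.28, limma adjusted p = 0.000820). ABCC4, which exports prostaglandins, was higher by 0.87, and ANXA1, counted above, by 1.03. PTGS1, the constitutive cyclooxygenase gene, had 26.5 and 16.8 against 174 and 95.2 (-1.96 ± 0.36, limma adjusted p = 0.00516). The secreted phospholipase gene PLA2G2A and the prostaglandin receptor gene PTGER2 were at -1.37 and -1.21 and are named to complete the count, after their values were seen. PLA2G4A alone of the 6 passed without DKO-3 hypoxia replicate 1, and 1 higher and 2 lower genes passed with the ACTB ratio.

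Of 16 genes of cholesterol and fatty acid synthesis, 3 were higher (18.8%, against 1.39% of all genes tested) and 0 lower. At an unadjusted p under 0.05, 6 were higher and 1 was lower. Of the 16 values 13 were positive (median 0.26), beside 5882 of all 12735 genes. SQLE, squalene epoxidase, had 2323 and 2481 against 1202 and 1250 (0.96), INSIG1, a sterol-regulated brake on the pathway, 4163 and 4987 against 2373 and 2386 (0.93), and MSMO1, a sterol oxidase, 4834 and 5358 against 2672 and 2886 (0.87). SC5D, a sterol desaturase gene outside that list, was higher by 1.64. The 3 list calls were lost without DKO-3 hypoxia replicate 1, with the ACTB ratio and without scaling, and those of SQLE and INSIG1 also without DKS-5 hypoxia replicate 2 or DKO-3 hypoxia replicate 2. Of 16 TGF-beta, BMP and ID genes, the receptor gene TGFBR2 was higher by 0.76, while the ligand genes BMP2 (-1.50) and INHBB (-1.40) and the inhibitor ID2 (-0.99) were lower. Together they were 25% of that list, against 4.37% of all genes tested. BMP2 had 44.6 and 73.4 against 175 and 210, and the lower genes numbered 1 without DKO-3 hypoxia replicate 1 and 0 with the ACTB ratio. TGFBR2 missed the threshold without DKS-5 hypoxia replicate 2 and without either DKO-3 hypoxia array, and ID2 without either DKS-5 hypoxia array. Of 21 genes of the unfolded protein and amino acid stress response, the transcription factor gene ATF4 had 1951 and 1322 against 2653 and 2966 (-0.80) and its target ASNS, asparagine synthetase, 846 and 547 against 1278 and 1231 (-0.87). These genes alone passed, 9.52% of that list against 4.37% of all genes tested. Both calls were lost without either DKO-3 hypoxia array, without DKS-5 hypoxia replicate 2 and with the ACTB ratio.

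Of the 9 remaining lists, 5 had 1 gene past the threshold and 4 had 0, so that their shares, at most 7.69%, lay near the 4.37% of all genes tested. Of 13 NF-kappaB genes and chemokines LCN2, a siderophore-binding protein gene, was lower, with 41.2 and 70.8 against 266 and 268 (-2.01), a call lost with the ACTB ratio. Of 20 apoptosis regulators the death receptor gene TNFRSF10B was higher by 0.69, of 24 proliferation genes the mitotic kinase gene AURKA by 0.57, and of 13 ribosome biogenesis genes the nucleolar gene NPM1 by 0.45. These 3 calls were each lost without either DKO-3 hypoxia array and with the ACTB ratio, that of TNFRSF10B also without DKS-5 hypoxia replicate 2, and those of AURKA and NPM1 without replicate 1. Of 18 exocytosis genes CADPS2 was lower, while SYTL2 (-0.78) and RAB3B (-0.93) did not pass. By an unadjusted p under 0.05, exocytosis had 0 higher and 5 lower genes, and ribosome biogenesis 4 higher and 0 lower. Higher and lower genes by that measure numbered 1 and 4 for NF-kappaB, 1 and 2 for apoptosis, and 3 and 2 for proliferation. Limma passed 0 of 12 p53 targets, 0 of 18 NRF2 and antioxidant genes, 0 of 19 genes of respiration and the citric acid cycle and 0 of 3 cancer-testis genes. At an unadjusted p under 0.05 these lists had 1, 5, 0 and 1 genes.

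The share of genes past the threshold ran from 1.27% on chromosome 16 to 7.94% on chromosome 15, beside 4.37% over all genes tested. On chromosome 15, 34 of 428 genes (7.94%) were lower in DKS-5 and 0 were higher (7 higher at an unadjusted p under 0.05), and 342 of the 428 values were negative. The median there was -0.29 in hypoxia and -0.28 in normoxia, and on every other chromosome it lay between -0.10 and 0.11 in hypoxia. On chromosome 13, 8 of 236 genes were higher and 1 was lower (3.81%, near the overall share), with the highest median of 0.11. Chromosome X held 5 higher and 17 lower genes of 394 (5.58%), close to the shares of several other chromosomes. Of the 20 largest falls 7 lie on X (SH3BGRL, RPS6KA6, KLHL13, HMGN5, PBDC1, HEPH and TSC22D3), although X holds 3.10% of the tested genes with a chromosome.

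**Figure D4:**
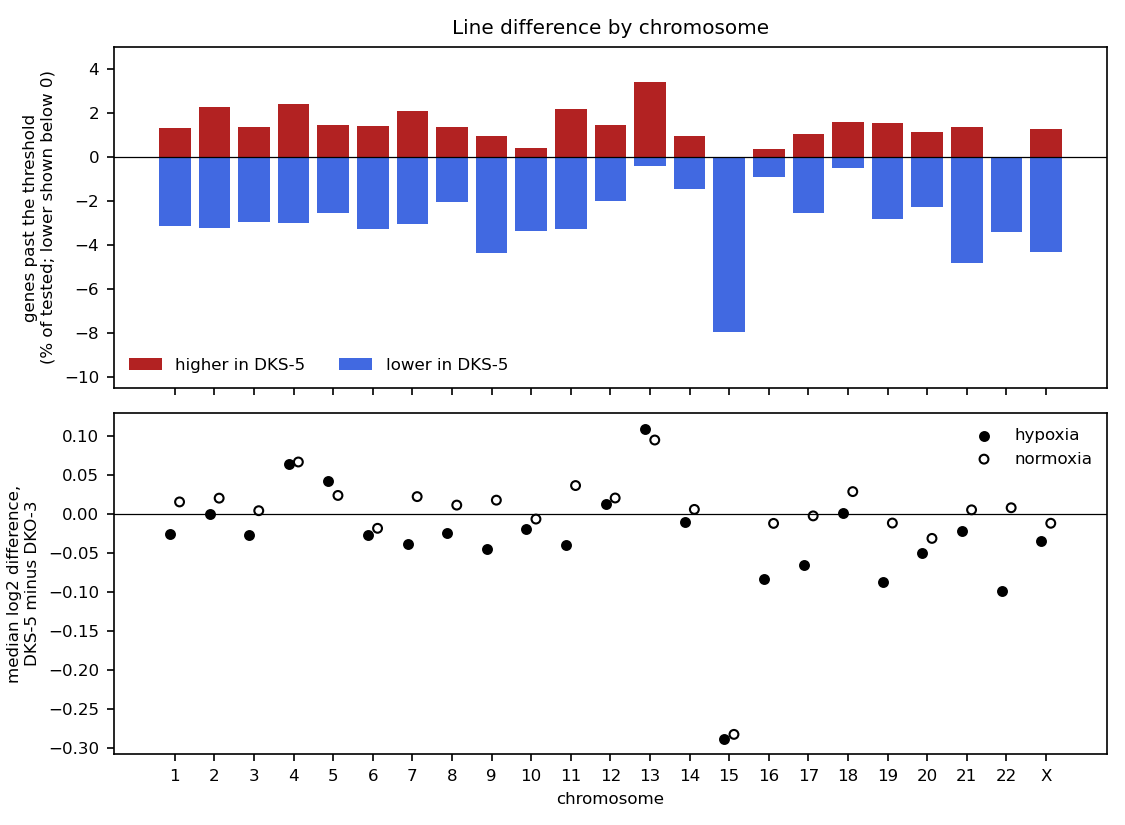
Upper panel, the percent of tested genes on each chromosome that were higher (red, above 0) or lower (blue, below 0) in DKS-5 in hypoxia. Lower panel, the median log2 difference in hypoxia (filled) and normoxia (open). Chromosome 15 stands at -0.29 and -0.28 and has 34 lower and 0 higher genes.

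Stretches of neighbouring tested genes in which at least 4 of 6 passed in 1 direction occurred in 3 places. On chromosome X, HMGN5 (-2.92), SH3BGRL (-5.27), RPS6KA6 (-3.56) and POF1B (-1.02) were lower, while the 2 tested genes between the last of them did not pass. On chromosome 6, LPAL2 (-1.23), PLG (-1.49), AGPAT4 (-1.48) and QKI (-1.03) were lower, with 1 gene between them that did not pass. PLG, the plasminogen gene, had 21.0 and 26.0 against 112 and 79.2. LPAL2 was under 13.8 on both DKS-5 arrays, with 1.82 and 7.44 against 36.0 and 28.3, a bound of at least 1.61-fold. Whether its probe set also reads related transcripts was not tested. When all probe sets of a gene were averaged, PLG and QKI missed the threshold, as did SORL1, UBASH3B and POF1B of the other stretches. On chromosome 11, SC5D (1.64), SORL1 (0.98), UBASH3B (0.97) and JHY (1.19) were higher, and CRTAM within that stretch was lower (-0.95). SC5D had 1826 and 1748 in DKS-5 and 504 and 628 in DKO-3. The same stretches had medians of -1.85, -1.35 and 0.91 in normoxia. Except for HMGN5, SH3BGRL, RPS6KA6 and SC5D, each of these calls was lost without DKO-3 hypoxia replicate 1. Those of AGPAT4, QKI, SORL1, UBASH3B, JHY and CRTAM were also lost without DKO-3 hypoxia replicate 2, those of LPAL2, QKI and CRTAM without DKS-5 hypoxia replicate 1, and those of AGPAT4, UBASH3B, JHY, CRTAM and POF1B without DKS-5 hypoxia replicate 2. With the ACTB ratio as a covariate LPAL2, QKI, SORL1, UBASH3B, JHY, CRTAM and POF1B did not pass.

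The normoxia arrays of the lines, which are separate arrays, show how much of the line difference was already present at 21% O2. There 324 of 12735 genes (2.54%) passed, 90 higher (0.707%) and 234 lower (1.84%) in DKS-5. Of the 177 genes higher in hypoxia, 71 were also higher in normoxia, 40.1% of the hypoxia list and 78.9% of the normoxia list. Of the 380 lower genes, 176 were also lower in normoxia, 46.3% and 75.2% of the lists. No gene passed in opposite directions. The sign in normoxia was the same for 174 of the 177 higher and 369 of the 380 lower genes, compared with 68.2% of all genes tested. Their median log2 difference was 0.64 in normoxia against 1.04 in hypoxia for the higher genes, and -0.97 against -1.19 for the lower genes, although these genes were chosen by their hypoxia values. Across genes the line differences at the 2 oxygen levels correlated with Pearson's r of 0.697. Genes are not independent replicates, and both differences come from 1 fit and 1 platform.

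Of the 20 largest rises 18 passed in normoxia too, and of the 20 largest falls 20 did. The exceptions were VEGFA and HLTF. HLTF, a helicase-like transcription factor that acts at stalled replication forks, had 135 and 123 in DKS-5 and 30.2 and 27.4 in DKO-3 in hypoxia (1.69 ± 0.38, limma adjusted p = 0.0208). In normoxia its arrays overlapped, with 103 and 174 against 64.2 and 215 (0.14, limma adjusted p = 0.961), and the hypoxia call was lost without DKS-5 hypoxia replicate 1 and without either DKO-3 hypoxia array. Among the 557 genes, 25 higher and 25 lower genes had a normoxia difference smaller than 0.25. Tested directly, the difference between the line differences passed in 0 of 12735 genes by limma (0.0%), and an unadjusted p under 0.05 was found in 333 genes, fewer than the 636.8 that chance alone gives on average. A larger line difference in hypoxia than in normoxia was thus not shown for any single gene, VEGFA included.

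**Figure D5:**
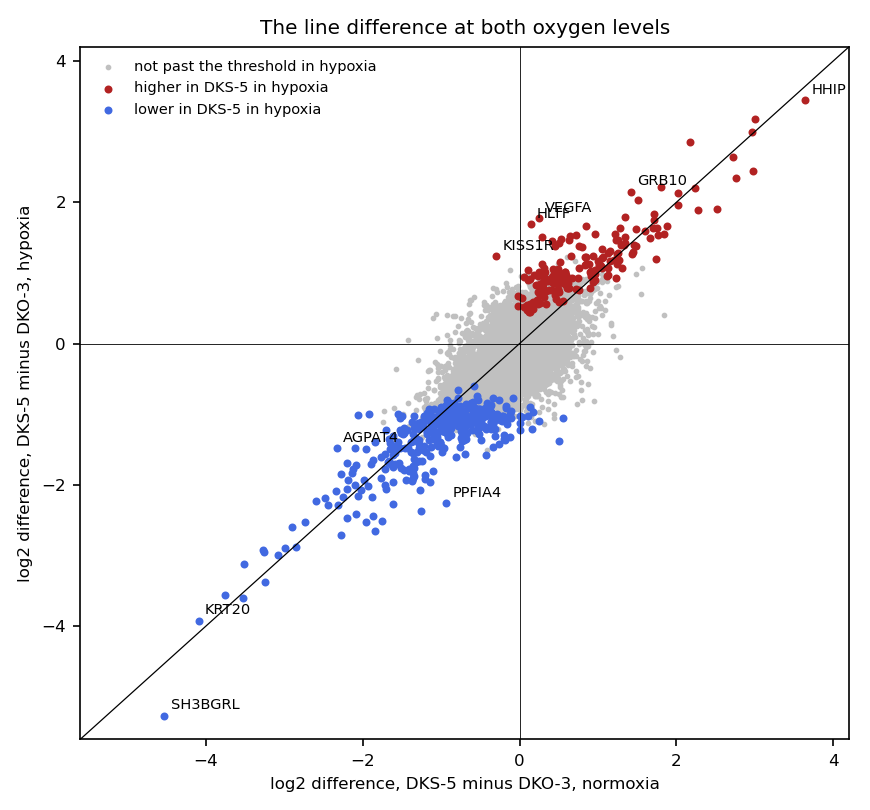
Log2 difference between the lines in normoxia (horizontal) and in hypoxia (vertical) for 12735 genes, with the line of equal values. Red and blue points are the 177 genes higher and the 380 genes lower in DKS-5 in hypoxia. Most lie near the diagonal, and VEGFA, HLTF and KISS1R have normoxia differences of 0.24, 0.14 and -0.29.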

How the data were processed

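Expression was measured in 8 samples of the colon cancer lines DKS-5 and DKO-3, 2 arrays in each of 4 groups, grouped by the labels. Per the labels' protocols, total RNA was amplified to cDNA and biotin-labelled with NuGEN kits. The deposited values were linear probe set intensities of 54675 probe sets, for which the authors used MAS5, as the submitters' processing notes record. Its version and target are not given in the sources used here. Detection calls were not used. The number of arrays limits the precision.

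The 62 AFFX control probe sets were left out. The 2% trimmed means of the deposited intensities ran from 133 to 201, with 132.5 and 155.9 for DKS-5 and 201.0 and 193.9 for DKO-3 in hypoxia. Each array was scaled to their median of 172.1, and log2(signal + 16) was taken, so that fold changes of dim genes are understated. Of the probe sets, 41091 had 1 gene in the platform annotation, 1801 had several and 11721 further probe sets are unnamed here. Each of 19775 genes was represented by its probe set with the highest mean. Tests covered the 12735 genes brighter than 40% of the probe sets, a signal of 13.8. Gene order came from the RefSeq gene table (GRCh38.p14), and no coordinates are printed from it. Promoters, the 250 bases before the start site, and their coordinates came from the RefSeq promoter table of the same build.

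The tests used limma 3.58.1 (R 4.3.3; 1 mean per group over all 8 arrays, eBayes with a trend, 4 residual and 11.3 prior degrees of freedom), two-sided, and adjusted by Benjamini-Hochberg across all 12735 genes, with calls at adjusted p under 0.05. The fit was checked on simulated data in which arrays were independent and no RNA quality difference followed the line. That check does not cover such features of these arrays. The genes named by rule were the 20 largest rises and falls past the threshold with arrays apart, the 5 smallest p of the difference between oxygen levels, up to 4 members with the smallest p of each of 32 lists, members of runs of neighbouring genes, and a few fixed genes. The 32 lists held 645 genes, of which 482 were tested. The comparison, the members and the lists were chosen with earlier results of these data known, and lists are described by counts and medians with no test. Same-numbered arrays of the hypoxia groups had deviations correlated at 0.33, but with 2 numbers only and no label that ties them, they were not taken as pairs. The K-ras gene and some list members are not analysed here. Alternatives changed the pseudocount, the filter, the scaling, the arrays in the fit, the block, the covariate, the probe set rule and the trend.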

Additional observations from a re-analysis of the deposited data

Results flagged for a closer look

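In 7 of the 177 genes named by rule, both DKS-5 arrays lay above both DKO-3 arrays in hypoxia and below them in normoxia. Some of them, KISS1R, DDIT4 and ARLN, were named for a small p of the difference between oxygen levels. Over all 12735 genes this pattern was found in 141 and the reverse in 200. The difference of the line differences, hypoxia minus normoxia on the log2 scale, was 1.54 for KISS1R, 1.21 for DDIT4, 1.07 for ARLN, 0.97 for PFKFB3, 0.65 for PDIA4, 0.61 for ERRFI1 and 0.60 for EGLN1. None of these differences passed the threshold by limma, where the smallest adjusted p over all genes was 0.738, and 333 genes had an unadjusted p under 0.05. DDIT4, an inhibitor of mTOR signalling, had 5297 and 5225 in DKS-5 and 3781 and 3355 in DKO-3 in hypoxia (0.56, limma adjusted p = 0.0667), and 867 and 953 against 1507 and 1361 in normoxia (-0.65). PFKFB3, a regulator of glycolytic flux, had 3530 and 4057 against 2560 and 2627 in hypoxia (0.54, limma adjusted p = 0.0839) and 1031 and 1153 against 1487 and 1465 in normoxia. ERRFI1, a feedback inhibitor of the EGF receptor, had 4556 and 4432 against 3085 and 3260, and 3222 and 3087 against 3365 and 3430. Of the 141 genes KISS1R alone passed in hypoxia. Of the 200 genes with the reverse pattern 2 passed in hypoxia, BCL2L10 and TTLL1, which are named after their values were seen. BCL2L10, a BCL2 family gene, had 4.66 and 5.85 in DKS-5 and 39.7 and 18.9 in DKO-3 in hypoxia (-1.05, limma adjusted p = 0.0441) and 42.3 and 25.3 against 15.3 and 19.9 in normoxia, a difference of -1.60 between the line differences. TTLL1, a tubulin-modifying enzyme gene, had 6.82 and 2.67 against 31.9 and 24.8 in hypoxia (-1.10, limma adjusted p = 0.0201). In normoxia it had 13.6 and 19.4 against 9.34 and 13.6, a difference of -1.34 between the line differences. The normoxia order of TTLL1 rests on 13.625 against 13.561, both under 13.8, and is not read as a reversal. The ACTB and GAPDH ratios of 3' to 5' signal did not overlap between the lines in hypoxia and did in normoxia, and their part in these values was not tested.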

How the results depend on the processing

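The direction of the line difference in hypoxia turned in 1 of the 93 genes named by rule and past the threshold: NPM1 was at -0.00589 without scaling. The count of 557 genes was 217 with no filter for brightness, 2383 without scaling, 357 in a fit of only the 4 hypoxia arrays and 128 with the ACTB ratio as a covariate, and ran from 135 to 761 when each array was left out in turn. It stayed within 1.5 times under the other settings, from 449 with quantile normalization to 791 with the replicate number as a block (257 higher and 534 lower). A similar count did not mean the same genes. Among the 557 were 408 of the 449 calls with quantile normalization and 348 of 476 with the mean of all probe sets. With the block they were 556 of 791. The normoxia count of 324 was 144 without the filter and ran from 119 to 441 over the arrays left out, and the difference between oxygen levels passed in 0 genes under each setting by limma. The share of higher genes was 31.8%, but 2.64% without scaling, 43.0% without DKS-5 hypoxia replicate 2 and 19.7% with the mean of all probe sets. Among genes named that did not pass, signs turned without scaling for NDRG1 (-0.40), HIF1A (-0.13), DUSP6 (-0.32), EPCAM (-0.073), EGLN1 (-0.070) and ARLN (-0.017). They turned with the ACTB covariate for NDRG1 (-0.10), HIF1A (-0.24), HRAS (0.68) and DUSP6 (-0.030), and with quantile normalization for NDRG1 (-0.0460). Over single arrays left out, HRAS ran from -0.37 to 0.17 and DUSP6 from -0.026 to 0.29. The cause of these changes was not tested. Counts of genes whose arrays lay apart include signals under 13.8. The order of TTLL1 in normoxia rests on such signals and is not read as a reversal.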
